A study of Bos taurus with 25 samples.

Results

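The caseins are the main proteins of milk, and 4 genes encode them in the cow: CSN1S1, CSN1S2, CSN2 and CSN3. Their probes were found on a 1-colour bovine array through the accession that the array design gives each probe, namely NM_181029 for CSN1S1, NM_174528 for CSN1S2, NM_181008 for CSN2 and NM_174294 for CSN3. The array named 27886 transcripts, and of its 43653 probes other than controls, 18 belonged to these 4 genes: 6 to CSN1S1, 5 to CSN1S2, 5 to CSN2 and 2 to CSN3. Each probe had 1 spot per array, and none of these spots was called an outlier on any array. The products of CSN1S1, CSN1S2 and CSN2, the alpha and beta caseins, are phosphoproteins that bind calcium, and the kappa casein made from CSN3 is a glycoprotein that coats the casein micelle and keeps it in suspension. The genes lie together in a cluster on the chromosome, and in lactation the secretory epithelial cells of the mammary gland transcribe them at a very high rate under prolactin, glucocorticoid and insulin signalling through STAT5, ELF5 and other factors. The liver is not known as a site of casein synthesis.

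The study asked how supplements of vitamin B9 (folic acid) and vitamin B12 change gene expression in the liver and mammary gland of dairy cows. All animals were multiparous Holstein cows, injected each week from before calving until their biopsies 64 ± 3 days after it. The 5 mL injected held saline alone in control cows (labelled Ctl), 320 mg of pteroylmonoglutamic acid in the B9 group, 10 mg of cyanocobalamin in the B12 group, and both doses in the B9 + B12 group. RNA of 13 mammary biopsies was measured, from 3 control, 3 B9, 4 B12 and 3 B9 + B12 cows, and RNA of 12 liver biopsies, from 3, 3, 4 and 2 cows of those groups. Each array was a different biopsy, and 12 of the 13 cows gave both tissues. Cows are named here by the number in their labels. The number of arrays limits the precision of every comparison, and in biopsies fewer cells of a type and less RNA per cell cannot be told apart.

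The arrays lay on 8 slides scanned on 2 days, and the later day held 1 slide, with the liver arrays of B12 cow 37, B9 + B12 cow 32 and control cow 43. Tissue labels were compared with marker lists in values set on a common scale: all 18 hepatocyte genes found on the array were higher in the liver, and 14 of 17 genes of the mammary epithelium list were higher in the mammary gland. The exceptions in the epithelial list were KRT8 and KRT18, keratins that hepatocytes also make, which were higher in the liver, and the cell adhesion gene CDH1, which was not called.

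In the mammary gland the casein probes were among the brightest spots of every array. All 18 were well above background on all 13 arrays, and each stood between rank 2 and rank 42 of the array's probes. The median signal of their spots was 191112 to 475325 scanner units, which is 24.5 to 61.0% of the level at which the scanner saturates, so 0 of the 18 probes were saturated on any array. Among the 42 probes with the highest mean in the mammary gland, 18 were for caseins, 2 for LALBA, which encodes the alpha-lactalbumin needed for lactose synthesis, 3 for PAEP, the gene of the whey protein beta-lactoglobulin, and 1 for GLYCAM1, a mucin-like milk protein. Of the other probes in that set, 2 had a gene symbol (RPLP1 and SCD) and 16 had none here. Brightness also depends on how well a probe hybridizes, so the caseins were not ranked against each other.

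Each casein is described by its brightest probe in the tissue, in the log2 values of the authors' processed table. For CSN1S1 (A_73_P050936), the 3 control cows 42, 43 and 51 gave 18.74, 18.78 and 18.72. The B9 cows 39, 41 and 57 gave 18.65, 18.74 and 18.78, the B12 cows 36, 37, 40 and 52 gave 18.74, 18.74, 18.69 and 18.74, and the B9 + B12 cows 31, 32 and 38 gave 18.65, 18.72 and 18.69. Cows of every group fell within the same narrow band, and the groups overlapped. For CSN1S2 (A_73_P287836), the values in the same order of cows were 18.43, 18.45 and 18.43 in control cows, 18.45, 18.43 and 18.43 with B9, 18.42, 18.36, 18.43 and 18.42 with B12, and 18.40, 18.43 and 18.43 with both vitamins. The lowest of these belonged to B12 cow 37, and the groups again overlapped.

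For CSN2 (A_73_116854), the control cows gave 18.59, 18.54 and 18.59, the B9 cows 18.46, 18.59 and 18.59, all 4 B12 cows 18.59, and the B9 + B12 cows 18.78, 18.59 and 18.59. The value of 18.59 was shared by 10 of the 13 arrays, because the normalization gives every probe of a given rank the same value on each array. Cow 31 of the B9 + B12 group was the highest and B9 cow 39 the lowest. For CSN3 (A_73_111101), the values were 18.52, 18.59 and 18.54 in control cows, 18.48, 18.54 and 18.54 with B9, 18.54, 18.43, 18.54 and 18.52 with B12, and 18.54, 18.52 and 18.54 with both vitamins. Cow 37 of the B12 group was the lowest for this gene as well.

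Casein levels therefore varied little between cows in this table, and closer to the level of other probes on a scale that does not tie values to rank. The SD over the 13 mammary arrays had a median of 0.0405 on the log2 scale over the 18 probes (0.0148 to 0.124), against 0.168 over all probes, and 0 of the 18 exceeded the median of all probes. When each array was instead scaled to its 75th percentile, which does not fix the value of a rank, the SD of the casein probes was 0.179 to 0.249 (median 0.192), against a median of 0.227 over all probes, which 3 of the 18 exceeded, and the highest and lowest cow of a probe differed by 0.64 to 0.99 on the log2 scale. Pairs of casein probes had correlations from -0.82 to 0.66 over the 13 arrays of the processed table (median -0.01), where a rise of 1 probe in rank pushes another down.

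**Figure D1:**
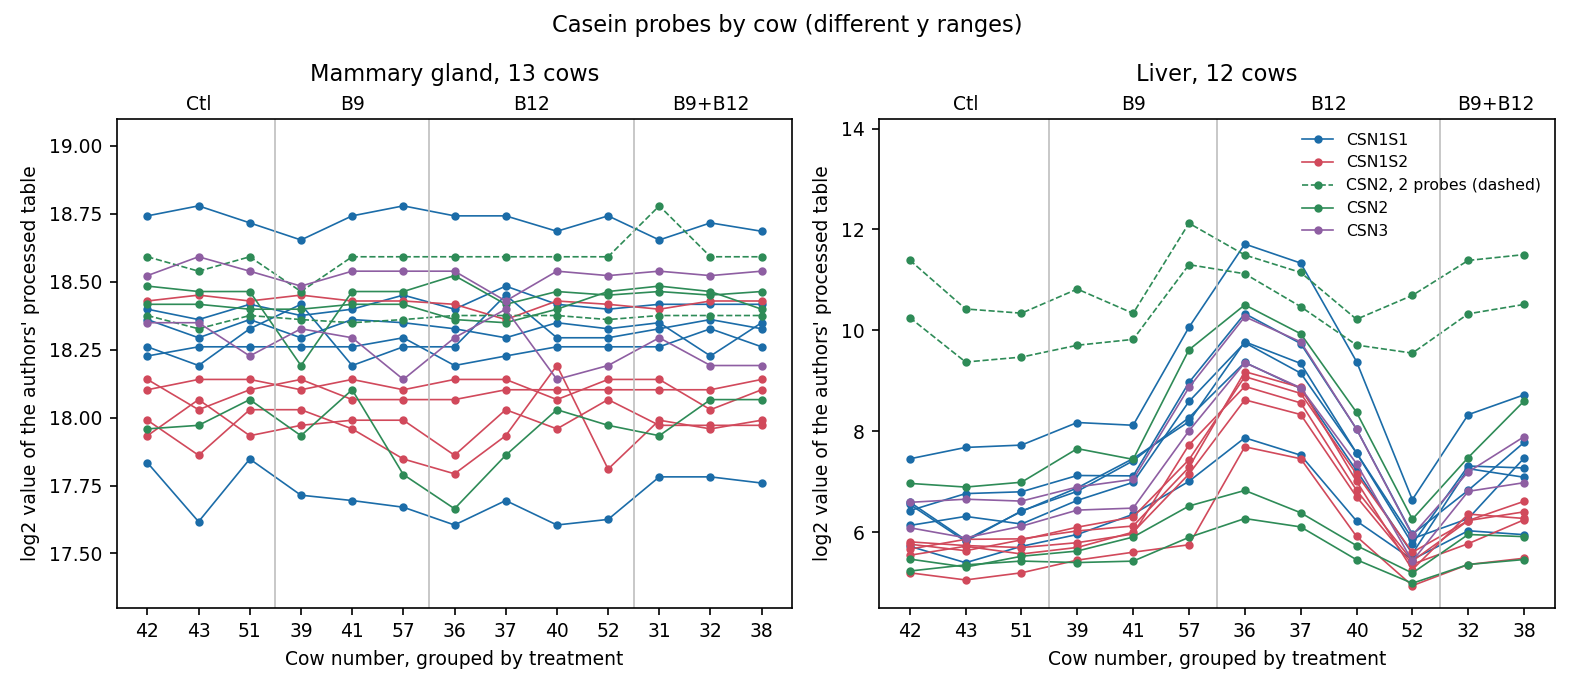
Log2 values of the 18 casein probes in the authors' processed table by cow, with the mammary gland at left (13 cows) and the liver at right (12 cows), on different vertical scales. Each line is a probe, coloured by gene, and dashed lines mark the CSN2 probes A_73_116854 and A_73_P232452. Mammary values stay between 17.60 and 18.78 in every group, while in the liver most probes are highest in B12 cows 36 and 37 and lowest in B12 cow 52.

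None of the vitamin treatments moved a casein probe past the test in the mammary gland. Called probes are those with a limma P, adjusted over all probes, no higher than 0.05 and a difference of 2-fold or more. As compared to control cows, 0 of the 18 probes were called with B9, B12 or B9 + B12, where 0% of all probes were called in each of these comparisons. At an unadjusted P under 0.05 the count was also 0 of 18 in each comparison, against 2.61% of all probes with B9, 2.25% with B12 and 1.97% with both vitamins. The lowest adjusted P of a casein probe in limma was 1.00 with each treatment. No treatment had a probe on which every treated cow stood above or every treated cow below all control cows. Of all probes, 6.99% did so with B9, 3.86% with B12 and 6.88% with both. Casein values tied to rank, shared by up to 10 of 13 arrays, can hardly separate so strictly, so no conclusion is drawn from this count.

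The fitted changes were small against the errors of the limma fit, which draws each probe's error toward the spread of all probes. Those errors exceeded the SD of the probes named here over 13 arrays: 0.041 for CSN1S1, 0.023 for CSN1S2, 0.067 for CSN2 and 0.037 for CSN3. CSN1S1 (A_73_P050936) differed from control cows by -0.02 (SE 0.07) with B9, -0.02 (SE 0.07) with B12 and -0.06 (SE 0.07) with both vitamins on the log2 scale. CSN1S2 (A_73_P287836) differed by 0.00 (SE 0.07), -0.03 (SE 0.06) and -0.02 (SE 0.07) in the same order. These differences were smaller than their limma errors, which is not a comparison with the probes' own spread. CSN2 (A_73_116854) differed by -0.02 (SE 0.08), 0.02 (SE 0.08) and 0.08 (SE 0.08), and CSN3 (A_73_111101) by -0.03 (SE 0.07), -0.04 (SE 0.07) and -0.02 (SE 0.07).

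Over all 18 probes, the changes ran from -0.10 to 0.03 with B9 (median -0.01), from -0.13 to 0.06 with B12 (median -0.01) and from -0.08 to 0.08 with both vitamins (median 0.01). The medians over all probes of the array were 0.00 in each comparison. Built on the same limma errors, the 95% confidence intervals of the 54 changes lay within -0.34 and 0.27. The ranks of this table leave the brightest probes little room to rise. With the processed signal scaled to the 75th percentile of each array, the 54 intervals lay within -0.68 and 0.69, and 0 of them reached a 2-fold change. The sign of these small changes depended on the scaling. On that scale, 17 of 18 probes were higher than in control cows with B12 and 17 with both vitamins, against 6 and 10 in the processed table, and 0 were higher with B9, against 5. No direction is therefore given for the mammary caseins.

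**Figure D2:**
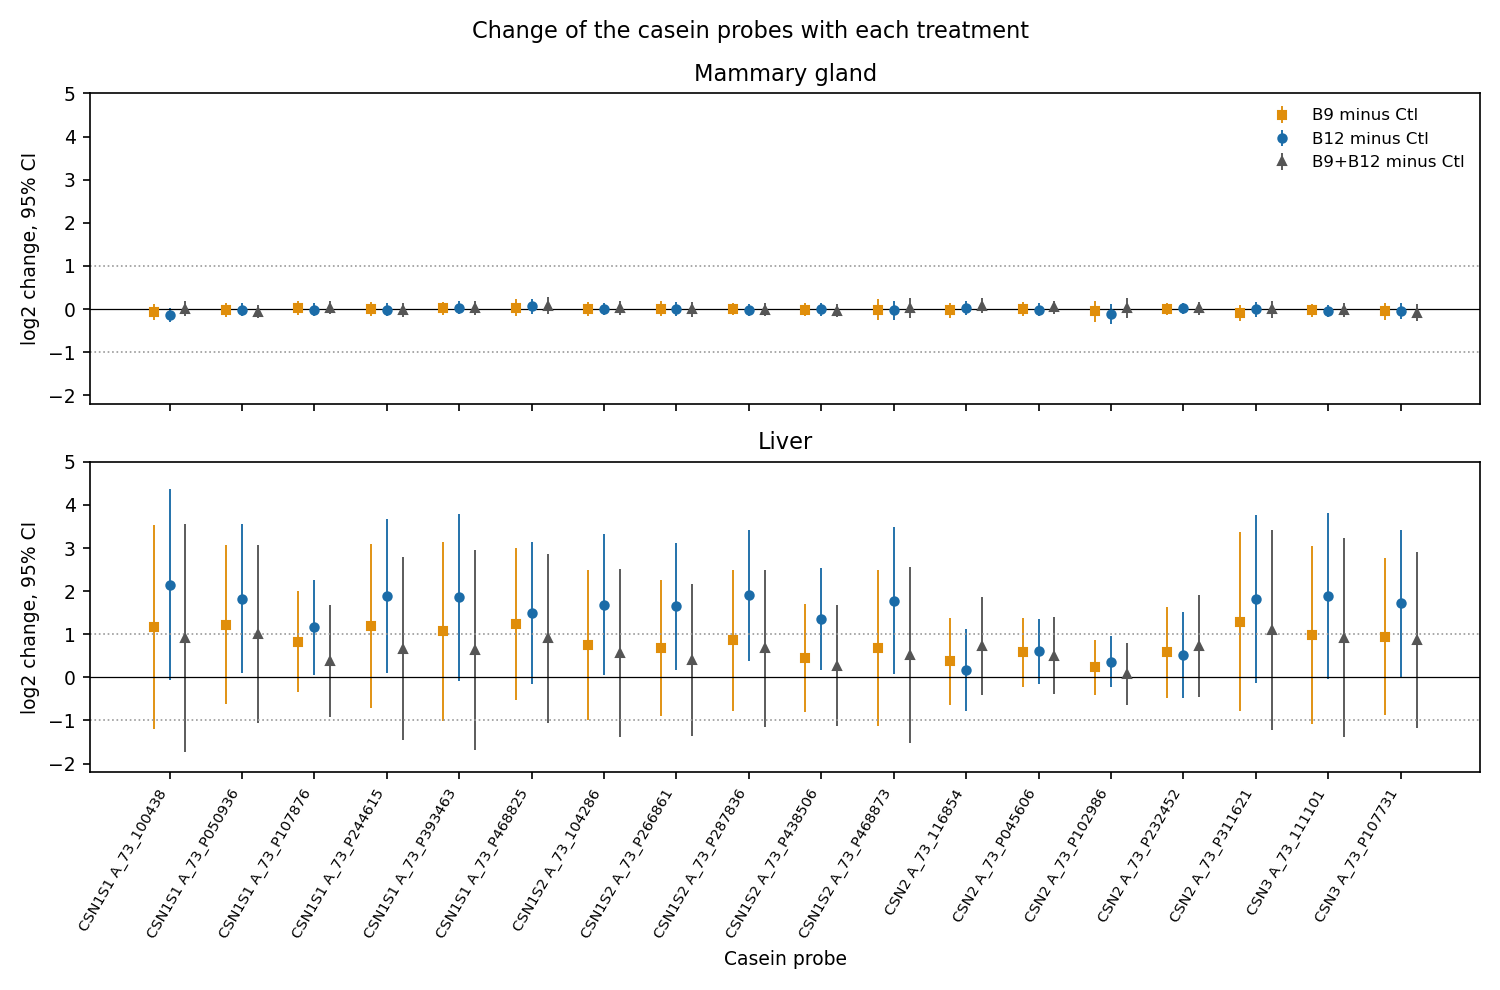
Change of each casein probe with each treatment as compared to control cows, on the log2 scale of the authors' processed table, with 95% confidence intervals from limma. Dotted lines mark a 2-fold change. Mammary changes (top) lie between -0.13 and 0.08, while liver changes (bottom) are all above 0, up to 2.15, with intervals that are much wider.

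Genes that act around the caseins gave no called change in the mammary gland either. Whey and lactose genes, casein folding, glycosylation and transport genes, lactogenic signalling genes and neighbours of the casein cluster were each described by the brightest probe of the gene. With B9, B12 and both vitamins, 0 of 8 whey and lactose genes, 0 of 18 folding and transport genes, 0 of 23 signalling genes and 0 of 9 neighbours were called in either direction. At an unadjusted P under 0.05, 2 of 23 signalling genes passed for B9, 1 for B12 and 1 for both, and 0 genes of the other 3 lists, where 2.61%, 2.25% and 1.97% of all probes passed. The whey and lactose genes had median log2 changes of -0.0029, 0.03 and -0.04, with the extremes at LTF, the gene of the iron-binding lactoferrin (0.57 with B9 and -1.13 with both vitamins). In the signalling list, CEBPB, a transcription factor of mammary differentiation, had the lowest values (-0.63, -0.66 and -0.43) and IGFBP5, which binds insulin-like growth factors, the highest (0.40, 0.66 and 0.67).

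The probes whose levels followed those of each casein most closely over the 13 mammary arrays were sought among 27112 probes that were well above background and not saturated on every array. For CSN1S1 the named ones were PIP4P1 (Pearson r = 0.887), PIH1D1 with 2 probes (0.846 and 0.826) and WDR5 (0.823). For CSN1S2 they were RHOV (0.834), SLC33A1 (0.816), ACTMAP (0.802), ZNF32 (0.797) and HCRTR1 (0.790), and for CSN3 NFKB1 (0.770), RAB9A (0.743) and TADA3 (0.742). For CSN2 they were EMCN with 2 probes (0.896 and 0.877), GNG11 (0.889) and LPAR6 (0.873). No gene was named for more than 1 casein. These values describe 13 arrays on which each casein took only 4 or 5 different values, and in CSN2 the value of cow 31 and that of cow 39 carry most of the range. They are the highest found among 27112 probes, were not tested against chance, and are not read as shared regulation.

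The caseins separated the tissues by more than most other probes did. After both tissues were put on a common scale, all 18 probes were called higher in the mammary gland than in the liver, where 9.76% of all probes were called higher in the mammary gland and 8.84% higher in the liver. Each probe was higher in the mammary gland in 12 of the 12 cows with both tissues. By size of the difference the 18 probes took places between rank 3 and rank 41 of all 43653.

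CSN1S1 (A_73_P050936) was higher in the mammary gland by 11.57 (SE 0.23) on the log2 scale, a 3032-fold difference, with 18.85 ± 0.05 (SD, n = 13) in the mammary gland and 7.34 ± 0.90 (SD, n = 12) in the liver. CSN1S2 (A_73_P287836) was higher by 11.73 (SE 0.19), CSN3 (A_73_111101) by 11.20 (SE 0.26) and CSN2 (A_73_116854) by 8.41 (SE 0.16). That CSN2 probe gave the smallest difference of all 18, a 340-fold one, and its liver values, like those of A_73_P232452, differ in pattern from the other casein probes. Another probe of the same gene, A_73_P045606, gave the largest difference, 12.18 (SE 0.07) or 4628-fold. The probe with the largest difference was well above background on only 10 of the 12 liver arrays. The offset of 50 in the background correction lifts dim liver values, so the size of these differences depends on it more than their direction does. With quantiles taken within each tissue, CSN1S1, CSN1S2, CSN3 and CSN2 differed by 11.08, 11.32, 10.66 and 7.53, and with the processed signal scaled to the 75th percentile by 13.24, 13.89, 12.79 and 8.91.

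**Figure D3:**
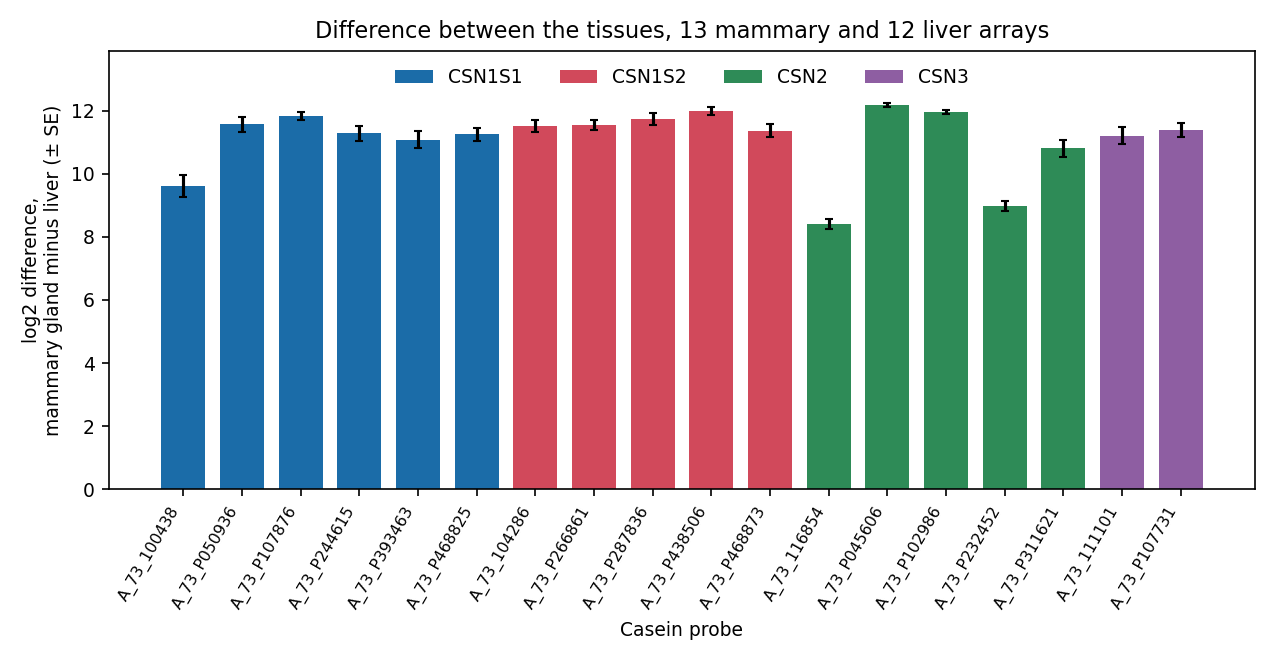
Difference between the mammary gland (13 arrays) and the liver (12 arrays) for each casein probe, as log2 with the SE of the limma fit, coloured by gene. The bars reach from 8.41 to 12.18, and the CSN2 probes A_73_116854 and A_73_P232452 and the CSN1S1 probe A_73_100438 are the shortest.

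Genes of milk synthesis that are not caseins were read against the same shares of all probes, 9.76% called higher in the mammary gland and 8.84% in the liver. In the whey and lactose list, 6 of 8 genes were called higher in the mammary gland and 1, PGM1, which interconverts glucose phosphates, was higher in the liver (-2.69, SE 0.08, mammary gland minus liver). LALBA was higher in the mammary gland by 10.99 (SE 0.29) and PAEP by 9.50 (SE 0.31). Of 18 folding, glycosylation and transport genes, 2 were called higher in the mammary gland, a share near that of all probes, and 0 in the liver. The 2 were XBP1, a factor of the secretory cell (1.04, SE 0.15), and the sialyltransferase ST6GALNAC4 (1.13, SE 0.13). Of 23 signalling genes, 9 were higher in the mammary gland and 3 in the liver. ELF5, a factor of alveolar cells that binds casein promoters, differed by 8.60 (SE 0.09), STAT5A, the factor activated by prolactin, by 1.07 (SE 0.13), and the prolactin receptor PRLR was not called (-0.62, SE 0.14). The growth factor IGF1 was the most liver-sided member (-2.87, SE 0.20).

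The casein cluster was not uniformly active in the mammary gland. In the RefSeq annotation of the cow (ARS-UCD2.0), the genes follow each other as SULT1B1, SULT1D1, SULT1E1, CSN1S1, CSN2, HSTN, STATH, CSN1S2, PRR27, ODAM, CSN3, CABS1, SMR3A and MUC7, and the array had probes for 9 of these 14. Between CSN1S2 and CSN3, ODAM, an enamel-associated secreted protein, differed between the tissues by -0.01 (SE 0.03), and CABS1, on the far side of CSN3, by 0.02 (SE 0.03). CABS1 was not well above background on any array, and ODAM only on 1 of each tissue. On the other side, the sulfotransferase gene SULT1B1 was higher in the liver (-2.13, SE 0.09, mammary gland minus liver). For SULT1E1, which lies next to CSN1S1, the result depended on the probe. Its brightest mammary probe, A_73_P419806, was well above background on all 13 mammary arrays and was not called (-0.50, SE 0.11). The probes A_73_114579, A_73_P340361 and A_73_P468283 were well above background on 0 of 13 mammary arrays and 11 or 12 of 12 liver arrays. Of these, A_73_114579 was called higher in the liver (-1.39, SE 0.12), while A_73_P340361 and A_73_P468283 were not called. STATH, which lies between CSN2 and CSN1S2 and encodes a small salivary protein, was well above background on 12 of 13 mammary arrays and on 0 of 12 liver arrays. Its mammary values ran from 4.87 in control cow 51 to 9.53 in B9 + B12 cow 32.

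In the liver the casein probes gave a low but measurable signal that differed strongly between cows. Of the 216 readings (18 probes on 12 arrays), 203 were well above background, and 12 of the 18 probes were so on all 12 arrays: 5 of CSN1S1, 2 of CSN1S2, 3 of CSN2 and both of CSN3. The readings that were not fell on B12 cow 52 (6 probes), control cow 43 (4), B9 + B12 cow 32 (2) and control cow 51 (1). No casein probe entered the 50 brightest of a liver array. The SD over the 12 liver arrays had a median of 1.18 on the log2 scale over the 18 probes (0.370 to 1.56), against 0.242 over all probes, and 18 of 18 exceeded that median.

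For CSN1S1, the brightest liver probe was A_73_100438. The control cows 42, 43 and 51 gave log2 values of 7.45, 7.68 and 7.73, and the B9 cows 39, 41 and 57 gave 8.17, 8.12 and 10.06. The B12 cows 36, 37, 40 and 52 gave 11.71, 11.33, 9.38 and 6.65, and the B9 + B12 cows 32 and 38 gave 8.33 and 8.72. Control cows stayed close together, and the B12 group held both the highest and the lowest cow of all, a 33.5-fold span. In scanner units the median signal of this spot reached 3624 over a local background of 15 to 28.

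CSN1S2 (A_73_P287836) gave 5.76, 5.63 and 5.85 in control cows, 6.10, 6.30 and 7.44 with B9, 9.08, 8.75, 7.15 and 5.60 with B12, and 6.23 and 6.61 with both vitamins, in the same order of cows. CSN3 (A_73_111101) gave 6.59, 6.65 and 6.62 in control cows, 6.89, 7.05 and 8.87 with B9, 10.27, 9.77, 8.04 and 5.94 with B12, and 7.19 and 7.89 with both. For both genes cows 36 and 37 were the highest and cow 52 the lowest, as for CSN1S1. Across the 18 probes, cow 36 was the highest for 16 and cow 57 for 2, cow 37 was second for 15, and cow 52 was the lowest for 15, cow 43 for 2 and cow 40 for 1.

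CSN2 was the gene whose probes disagreed in the liver. Its brightest probe, A_73_116854, gave 11.39, 10.42 and 10.34 in control cows, 10.82, 10.34 and 12.12 with B9, 11.49, 11.15, 10.22 and 10.69 with B12, and 11.39 and 11.50 with both vitamins. A further probe, A_73_P311621, gave 6.97, 6.89 and 6.99 in control cows, 7.66, 7.44 and 9.61 with B9, 10.51, 9.93, 8.38 and 6.26 with B12, and 7.48 and 8.60 with both. The first spanned 3.74-fold between cows, with B9 cow 57 highest, and the other 19.0-fold, with cow 36 highest and cow 52 lowest. A_73_P232452 behaved like the first, with 9.37 in control cow 43 as its lowest value and 11.30 in cow 57 as its highest. These 2 probes, A_73_116854 and A_73_P232452, were set apart after their values were seen. Probe sequences were not used here, and whether these 2 probes also bind another transcript was not tested, so their liver values, the treatment changes read from A_73_116854 and its difference between the tissues may not be those of CSN2 alone.

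Over the 12 liver arrays, pairs among the other 16 casein probes had Pearson correlations of 0.83 to 1.00 (median 0.96). The 2 CSN2 probes set apart had 0.29 to 0.87 with those 16 and 0.90 with each other. Points of these correlations share the same arrays and their scaling. The mean of the 16 probes was 6.07, 5.99 and 6.13 in control cows, 6.41, 6.61 and 7.83 in B9 cows, 9.09, 8.69, 7.16 and 5.60 in B12 cows, and 6.55 and 6.88 in B9 + B12 cows. The mean of the 2 CSN2 probes lay between 9.90 and 11.71 in all groups, and cows 42, 38, 32 and 37 reached nearly the same level on it.

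As compared to control cows, every casein probe had a higher mean in the liver with each treatment, but none was called. With B12, the log2 changes ran from 0.17 to 2.15 (median 1.70, against 0.00 over all probes). At an unadjusted limma P under 0.05, 9 of 18 probes passed, against 1.99% of all probes, with an adjusted P of 1.00 for each of the 18 and 0 called, where 0.00229% of all probes (1 probe) was called. The 9 were 3 of CSN1S1, all 5 of CSN1S2 and 1 of CSN3, and 0 of CSN2. On 16 of the 18 probes 3 of the 4 B12 cows stood above all control cows, and cow 52 stood below or among them, so no probe separated the groups, against 4.96% of all probes that did.

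CSN1S1 (A_73_100438) was higher with B12 by 2.15 (SE 1.00), or 4.43-fold, with a 95% confidence interval of -0.07 to 4.36, a limma P of 0.056 and an exact permutation P of 0.229. CSN1S2 (A_73_P287836) was higher by 1.90 (SE 0.69), with a limma P of 0.0195 and an exact permutation P of 0.143. CSN3 (A_73_111101) was higher by 1.89 (SE 0.88), with a limma P of 0.0545 and an exact permutation P of 0.229. CSN2 depended on the probe, with 0.17 (SE 0.43) for A_73_116854 and 1.82 (SE 0.88) for A_73_P311621. With 4 cows against 3, the smallest exact P is 0.0286. Single cows decided how many probes passed the unadjusted threshold with B12. Without cow 52 it was 16 of 18, against 2.53% of all probes, and without cow 40 it was 8, against 1.66%. It was 0 without cow 36, cow 37 or control cow 43, against 1.51%, 1.65% and 2.01% of all probes, and 1 without control cow 42 or control cow 51, against 1.58% and 1.91%. Without cow 52, CSN1S1 was higher by 3.19, and without cow 36 by 1.50.

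With B9, the changes ran from 0.24 to 1.29 (median 0.85, against 0.02 over all probes), 0 of 18 probes had an unadjusted P under 0.05, against 3.42% of all probes, and the lowest adjusted P was 0.891. On 13 of 18 probes all B9 cows stood above all control cows, where 4.28% of all probes did so, and 0 of 18 were called, against 0% of all. CSN1S1 (A_73_100438) was higher by 1.17 (SE 1.07), CSN1S2 by 0.87 (SE 0.74), CSN3 by 0.98 (SE 0.94) and CSN2 by 0.37 (SE 0.46) on A_73_116854 and 1.29 (SE 0.94) on A_73_P311621. The exact permutation P was 0.1 for the first 3 genes, the smallest that groups of 3 allow, and 0.7 for CSN2 on A_73_116854. Cow 57 set the size: without it the median over the 18 probes was 0.40 and the CSN2 value -0.14.

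With both vitamins, the changes ran from 0.07 to 1.09 (median 0.67, against 0.02 over all probes), and the lowest adjusted P was 0.664. Both B9 + B12 cows stood above all control cows on 15 of 18 probes, where 11.8% of all probes did so. At an unadjusted P under 0.05 the count was 0 of 18, against 5.98% of all probes, and 0 were called, against 0% of all. CSN1S1 (A_73_100438) was higher by 0.91 (SE 1.20), CSN1S2 by 0.67 (SE 0.83), CSN3 by 0.92 (SE 1.05) and CSN2 by 0.72 (SE 0.51) on A_73_116854 and 1.09 (SE 1.05) on A_73_P311621. These values rest on 2 cows: the median over the 18 probes was 0.82 without cow 32 and 0.53 without cow 38, and the CSN3 change 1.27 and 0.57. The 3 treatments were set against the same 3 control arrays, so their values are not independent of each other.

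Slides held more than 1 group, so the liver change was also read within them. On the slide with cows 57, 38 and 42, the median over the 18 probes was 1.65 for B9 cow 57 and 0.64 for B9 + B12 cow 38 over control cow 42. On the slide scanned on the other day, it was 2.91 for B12 cow 37 and 0.59 for B9 + B12 cow 32 over control cow 43, and on a further slide 1.14 for B12 cow 40 over control cow 51. These 5 pairs share 3 control arrays, and cow 52, the lowest of the B12 group, had no control cow on its slide. With the slide as a fixed block, CSN1S1 (A_73_100438) was higher by 2.80 with B12, 2.31 with B9 and 0.67 with both vitamins, and the median over the 18 probes with both fell from 0.67 to 0.44. Cows 36, 52, 39 and 41 were each the only liver array on their slide and do not enter these values, so B12 rested on cows 37 and 40, B9 on cow 57 alone and B9 + B12 on cows 32 and 38, and 2 residual degrees of freedom were left. The low cow 52 is among those that drop out, and no count of probes is read from this fit. Without the 3 arrays of the other day, 0 of 18 probes had an unadjusted P under 0.05 with B12, against 1.81% of all probes, and CSN1S1 was higher by 1.66. Cow 36, the highest, lay on slide 5 and cow 52, the lowest, on slide 7, and both of those slides also held mammary arrays. So did slide 2 with B9 cow 39 and slide 3 with B9 cow 41. The remaining liver arrays lay on slides 1, 4 and 8, which held only liver arrays. Whether sharing a slide with mammary arrays played a part was not tested.

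Whether a treatment acted differently in the tissues was tested as an interaction over all arrays, without pairing by cow and with a shared spread. The difference between the mammary and the liver effect was below 0 for all 18 probes with each treatment, between -1.99 and -0.14 with B12. Rank kept the mammary changes small (-0.13 to 0.08 in the processed table), so this difference largely repeats the liver change. For B12, 11 of 18 probes had an unadjusted limma P under 0.05, against 1.83% of all probes. The count was 0 of 18 for B9 and for both vitamins, against 2.35% and 4.24% of all probes. In the liver alone with an offset of 50, 5 of 18 passed with B12, against 2.12%. The 11 are therefore not read as a separate result. None of the 54 differences passed adjustment, and the lowest adjusted P was 0.834.

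The liver signal of the caseins moved together with that of other milk proteins. Of all probes, those most like the mean of the 16 casein probes over the 12 liver arrays were PAEP (A_73_P459006, r = 0.994), LALBA with 2 probes (0.991 and 0.967), an unnamed transcript (0.956) and GLYCAM1 (0.933), and the next ones were PAEP, GLYCAM1 and PAEP again (0.932, 0.929 and 0.904). PAEP (A_73_P459006) gave 8.95, 8.79 and 8.83 in control cows, 9.29, 9.49 and 11.25 with B9, 12.52, 12.10, 10.01 and 8.25 with B12, and 9.78 and 10.06 with both vitamins. LALBA (A_73_113728) gave 6.68, 6.75 and 6.86 in control cows, 7.10, 7.16 and 9.28 with B9, 10.61, 10.07, 8.20 and 5.98 with B12, and 7.78 and 8.05 with both. For PAEP and LALBA, which were picked by this correlation, cows 36, 37 and 57 were thus the highest and cow 52 the lowest. LTF, a further whey protein gene, ran from 8.32 to 13.39 in the liver with a correlation of only 0.46.

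**Figure D4:**
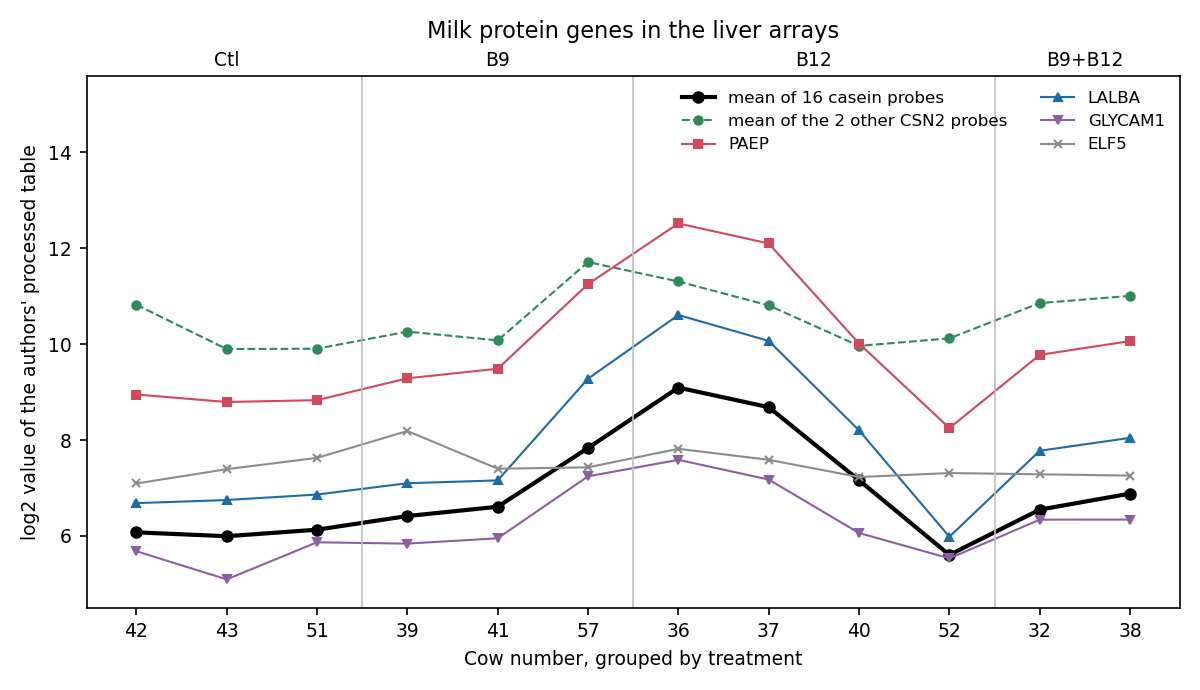
Log2 values in the 12 liver arrays, by cow: the mean of 16 casein probes (thick line), the mean of the CSN2 probes A_73_116854 and A_73_P232452 (dashed), and the brightest probes of PAEP, LALBA, GLYCAM1 and ELF5. PAEP, LALBA and GLYCAM1 follow the caseins to their peak in cows 36 and 37, while ELF5 stays between 7.09 and 8.19.

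The other fixed lists were set against the casein mean in the same way. Of the 17 genes of the mammary epithelium list, 1, GLYCAM1, had a correlation above 0.9 with the casein mean over the liver arrays, and the median was 0.26. Of the 8 whey and lactose genes, 2 did, PAEP and LALBA, with a median of 0.18, and in the other lists 0 genes did, those of folding and transport, cluster neighbours, signalling, myoepithelium, adipocytes, immune cells, stroma and endothelium, and hepatocytes. ELF5 stayed between 7.09 and 8.19 in the liver (r = 0.30), and BTN1A1, a protein of the milk fat globule, between 5.92 and 7.11 on its brightest liver probe, A_73_P419356 (r = 0.03, well above background on 12 of 12 arrays). Another BTN1A1 probe, A_73_114446, ran from 4.72 to 5.30 (r = 0.64) and was well above background on 1 of 12 arrays. The summed linear level of the epithelial list was 132193 to 159718 in control cows, 112400 to 172391 with B9, 123763 to 173157 with B12 and 94384 to 127340 with both vitamins. That sum holds genes that were bright on every liver array, namely XDH (14.96 to 16.04 on the log2 scale, r = 0.15 with the casein mean), KRT18 (14.54 to 16.14, r = 0.72) and KRT8 (14.17 to 15.32, r = 0.78), so it says little about mammary cells. For the whey and lactose list the sums were 42820 to 46025, 38568 to 46185, 45778 to 58097 and 43323 to 52773 in the same order. The share of all probes well above background on the liver arrays was 71.2 to 84.2%, with 73.4% for cow 52, 82.7% for cow 36 and 74.4% for cow 37. The part of other cells, of RNA from another sample and of array quality in the casein signal of the liver was not tested.

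Set against the mammary array of the same cow, the liver signal was a small fraction. For each probe the processed signal of the liver array was divided by that of the mammary array. The median over the 16 probes was 0.0162, 0.0085 and 0.0113% in control cows 42, 43 and 51, and 0.0176, 0.0160 and 0.0432% in B9 cows 39, 41 and 57. It was 0.221, 0.128, 0.0362 and 0.0049% in B12 cows 36, 37, 40 and 52, and 0.0093 and 0.0283% in B9 + B12 cows 32 and 38. Cows 36 and 37 stood well above the other 10 cows. The highest share of a single probe among the 16 was 1.78% in cow 36, and for the CSN2 probes A_73_116854 and A_73_P232452 the shares ran from 0.196% in control cow 51 to 1.02% in B9 cow 57. Both tissues of a cow were scaled as the scanner software left them, so the shares carry the difference in overall brightness of the arrays.

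**Figure D5:**
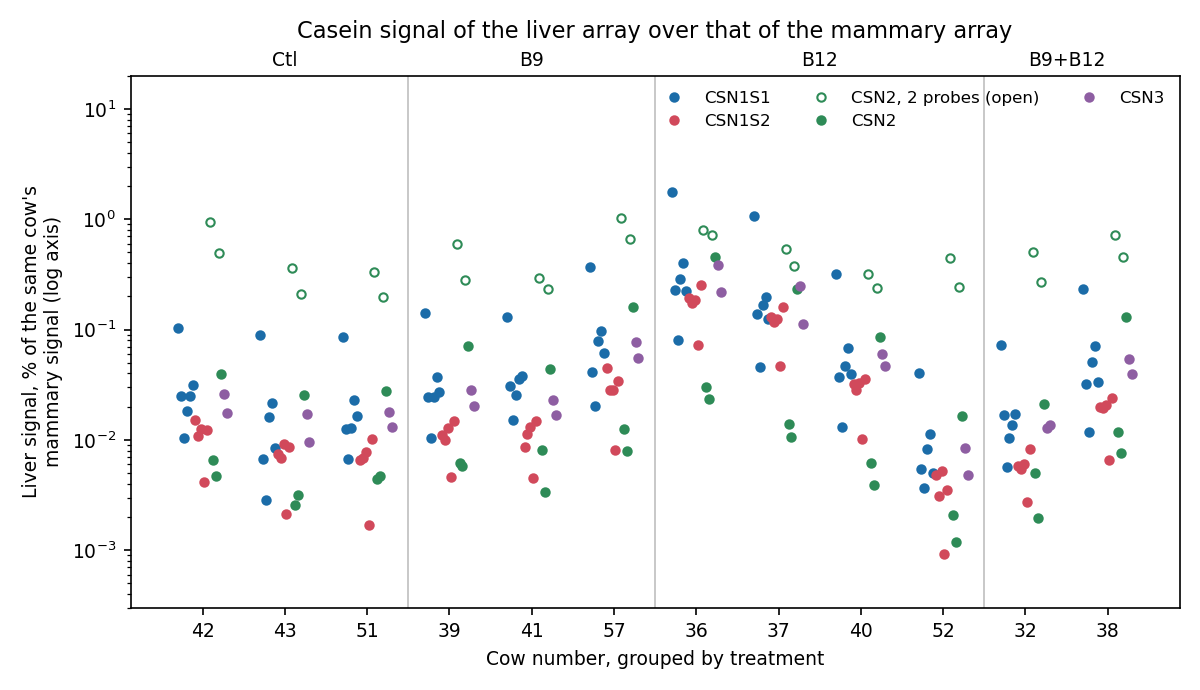
Processed signal of each casein probe on the liver array as a percent of that on the mammary array of the same cow, on a log axis, by cow and treatment. Open circles are the CSN2 probes A_73_116854 and A_73_P232452, which lie between 0.196 and 1.02% in all 12 cows, and filled circles are the other 16 probes, highest in cows 36 and 37.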

How the data were processed

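RNA of 13 mammary and 12 liver biopsies was hybridized to 1-colour Agilent arrays (design build HGSC Btau_3.1) and read with Agilent Feature Extraction 10.7.3.1, per the file headers. The deposited scanner files hold, for each spot, a median intensity and a local background intensity, both without normalization, a processed signal, and other columns with calls of outlier, saturated and well-above-background spots. The processed table of the authors is on the log2 scale, background-corrected by normexp and normalized between arrays. It was rebuilt from the scanner intensities with normexp (offset 16) and quantiles within each tissue, and 99.6% of mammary and 99.7% of liver values matched within 0.001. Probes were joined by feature number and named through accessions in the RefSeq table (ARS-UCD2.0), which paired 11114 of 27886 names. NM_181008, absent from that table, was taken as CSN2.

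Treatments were compared in the processed table with limma 3.58.1 (R 4.3.3) over all arrays of a tissue, with Benjamini-Hochberg adjustment over 43653 probes. Tissues were compared after normexp (offset 50) and quantiles over all 25 arrays. The tests were tested on simulated data. A gene is described by its brightest unsaturated probe in the tissue. Genes of the lists are given as counts, with values for the extremes and those a result turns on, and the 5 probes most like each casein are named where they have a symbol. The members and lists were chosen with earlier results of these data known. Tissues are paired by cow, being the same animals. The deviations of a cow's arrays from their group means correlated by -0.25 to 0.26, above 0.1 for 4 of 12 cows. Alternatives changed the offset, background correction, scaling, filter, outlier spots, slide block, test (Cyber-T, window 101, confidence 10) and arrays. No sequence was used here.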

Additional observations from a re-analysis of the deposited data

Results flagged for a closer look

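In 36 groups of 4 cows (the 18 casein probes in the B12 group of each tissue), the gap of the highest or lowest cow to the nearest other, as a share of the group's range, passed Dixon's limit in 5, all in the mammary gland. The limit lets about 1 group in 20 pass for untied, independent values. That rate does not hold here, as values are tied to rank and the 18 probes share the same 4 cows. The share was 1 for CSN1S1 A_73_P050936, CSN1S2 A_73_104286, CSN1S2 A_73_P438506 and CSN2 A_73_P232452, where the other 3 cows had identical values, and 0.851 for CSN3 A_73_111101, where cow 37 was lowest at 18.43. The ranges behind these shares are small, and the table gives probes of equal rank equal values.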

How the results depend on the processing

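No casein probe was called with any treatment in either tissue under any alternative, including Cyber-T. With B9, B12 and both vitamins, Cyber-T called 12, 12 and 10 of all 43653 probes in the mammary gland, and 5, 48 and 26 in the liver. The count of 18 called between the tissues stayed 18 with the cow as a replicate block (pairing by animal), as a random block and without any single array. When the probes of each gene were averaged the unit changes, and 4 of 4 genes were called. The replicate block changed no other call. In the mammary gland, scaling to the 75th percentile turned the sign: with the processed signal, CSN1S1, CSN1S2 and CSN3 were at 0.083, 0.057 and 0.074 with B12 and at 0.020, 0.039 and 0.10 with both vitamins, and with normexp at 0.14, 0.12 and 0.14 with B12 and at 0.11, 0.12 and 0.14 with both. That normexp scaling moved the median of all mammary probes to -0.21 with B9, -0.12 with B12 and -0.15 with both, and of all liver probes to 0.11, -0.08 and 0.27, so that relative to it the liver medians of the caseins, 0.63, 1.32 and 0.71, were above it. Averaging the probes of each gene gave -0.022 for CSN2 with B12 and 0.0090 for CSN1S1 with both. Leaving out single cows gave -0.048 to 0.015 (CSN1S1) and -0.046 to 0.018 (CSN2) with B9 and -0.032 to 0.0027 (CSN3) with both in the mammary gland. In the liver, CSN2 ran from -0.14 to 0.75 with B9 and from -0.032 to 0.51 with B12 when single cows were left out, and was -0.064 with B12 without the slide scanned on another day (an alternative added after seeing the data, as was reading CSN2 by A_73_P311621). All 18 liver changes were above 0 with each treatment under each scaling and background correction tried, and the B12 count with an unadjusted P under 0.05 ran from 1 (processed signal at the 75th percentile; 2.13% of all probes) to 11 (normexp at the 75th percentile; 1.03%). The probes with an unadjusted P under 0.05 in the liver became 15 with B9, 15 with B12 and 11 with both under Cyber-T (4.22, 4.35 and 6.31% of all probes), with a lowest adjusted P of 0.099, and 7, 3 and 11 with only the groups compared (2.57, 4.11 and 5.56%). The cause of these changes was not tested. Precision is limited by 2 to 4 arrays per group, by mammary values that the quantile step ties to rank, and by liver spots near background.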
